A study of Caenorhabditis elegans with 6 samples.

Results

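Genes of the oxidative stress defence were measured in distal gonad arms of Caenorhabditis elegans: the regulator skn-1, its classical targets gst-4 and gcs-1, the superoxide dismutase genes sod-1 and sod-3, the catalase genes ctl-1 and ctl-2, and the thioredoxin system genes trx-2, trxr-1 and trxr-2. These 10 genes were taken by name from the 46934 gene identifiers of the count tables, and 9 of them were among the 9787 genes with enough reads to be tested. The sin-3(tm1276) group comprised 3 libraries from animals carrying the tm1276 allele of sin-3, which encodes the scaffold of a histone deacetylase complex. The wild-type group comprised 3 libraries from animals without it. In both groups RNA came from gonads of 5 to 7 young adults, taken 12 h after the L4 larval stage and cut at the bend, so each library pools several animals and holds mitotic and early meiotic germ cells with the somatic cells around them. No other allele, transgene or treatment is given for either group. Nothing in the labels ties the 3 libraries of a group to separate cultures, so each p-value reflects only how these libraries spread, which may be technical.

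SKN-1 is a transcription factor of the Nrf type. The protein made from maternal RNA specifies early blastomeres of the embryo, and in larvae and adults it switches on genes of detoxification and glutathione metabolism when oxidants or electrophiles are present. Superoxide dismutases turn superoxide into hydrogen peroxide, which catalases and peroxiredoxins remove. Thioredoxins reduce oxidised proteins and peroxiredoxins, and thioredoxin reductases restore them with electrons from NADPH, with separate sets of enzymes in the cytosol and in mitochondria.

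Gene-assigned reads ranged from 24491014 to 30634455 per library, and a gene with no read in a library could have had up to 3 reads, or 0.0942 to 0.130 CPM (reads of a gene relative to the scaled size of its library, with factors from the trimmed mean of M values, TMM), a limit that covers counting error only. The level of sin-3 was 179.7 ± 4.27 CPM in the mutant and 364.9 ± 5.71 CPM in wild type (SD, n = 3 each), and every mutant library was below every wild-type library. Of 13 germ cell markers all were tested, and their TMM-scaled sum was 4168 to 4308 CPM in mutant and 4546 to 4925 CPM in wild-type libraries. Among them 2 rose and 5 fell, against 31.3% and 30.7% of all genes, with a median log2 fold change of -0.15. Under scaling by library totals 5 of them rose and 2 fell, with a median of 0.021. That scaling called 4446 of all 9787 tested genes higher and 1864 lower. Of 11 somatic gonad markers 9 were tested, of which 7 rose and 1 fell, with a median log2 fold change of 1.18. Their summed levels were 2086 to 2186 CPM in mutant and 1943 to 2231 CPM in wild-type libraries, sums made up mostly of fln-1, which encodes an actin-binding filamin and was at 1597 ± 44.6 CPM in the mutant and 1621 ± 141 CPM in wild type (SD, n = 3 each). In such bulk samples fewer cells of a type and less RNA per cell cannot be told apart.

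The largest differences among the antioxidant genes lay in opposite directions. The gene trx-2 fell 4.17-fold in the mutant and trxr-1 fell 1.66-fold, whereas skn-1 rose 1.48-fold, gst-4 3.64-fold, sod-3 4.21-fold, trxr-2 1.35-fold and sod-1 1.21-fold. The genes gcs-1 and ctl-2 did not pass the test, and ctl-1 had too few reads to be tested. Calls were made by the edgeR quasi-likelihood test at an adjusted p under 0.05. Of all genes tested in this comparison 31.3% were called higher and 30.7% lower, 62.0% together, so 5 higher and 2 lower genes of 9 tested stand against a background in which most genes were called. The libraries of the genotypes did not overlap for the same 7 genes, as they did not for 67.8% of all genes tested. One of the 7, sod-3, reached the level for testing, about 0.400 CPM before scaling, in the 3 mutant libraries and in 0 wild-type libraries, and therefore entered the test through the genotype in which it was higher.

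**Figure D1:**
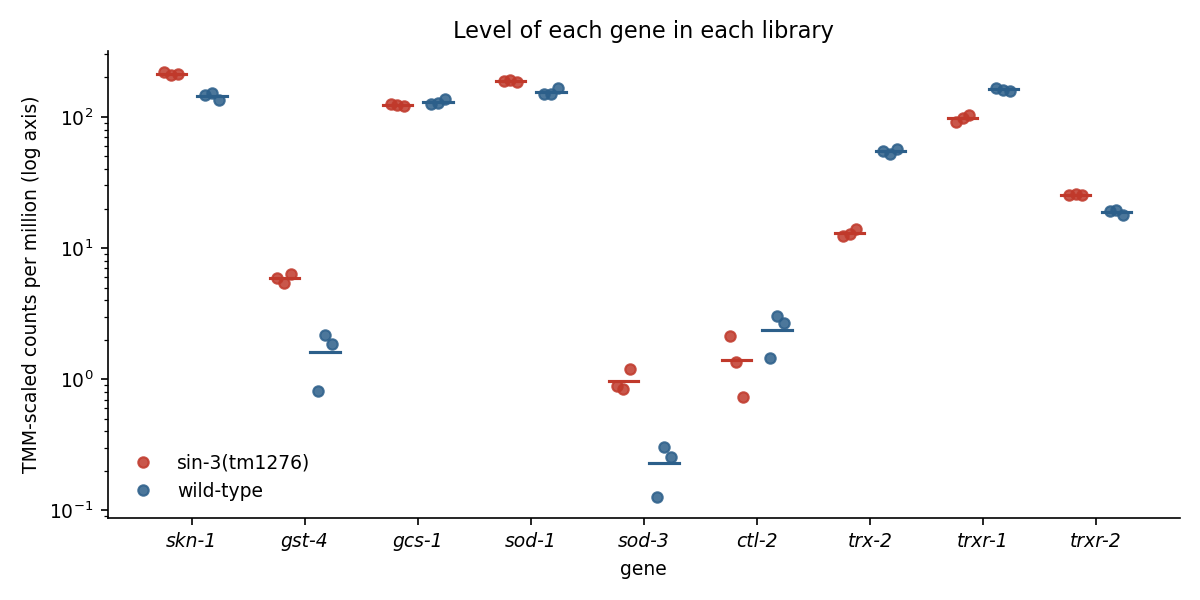
Level of 9 antioxidant genes in each library, as TMM-scaled CPM on a log axis; each point is a library, the short line is the mean of 3, and ctl-1 is left out because 1 of its libraries is at 0. The mutant libraries of trx-2 lie between 12.4 and 14.03 CPM, below the wild-type libraries at 51.9 to 56.5 CPM, while the libraries of the genotypes overlap for gcs-1 and ctl-2.

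The regulator gene skn-1 (WBGene00004804, chromosome IV, 5651039 to 5660384 on the minus strand in WBcel235, 4 annotated transcripts) was at 219.5, 206.9 and 211.6 CPM in mutant replicates 1 to 3 and at 147.3, 150.9 and 134.0 CPM in wild-type replicates 1 to 3. Every mutant library thus lay above every wild-type library. The log2 fold change was 0.56 ± 0.044 (SE, adjusted p = 1.1e-07 in edgeR), and it lay between 0.51 and 0.73 under all the alternatives run. A count per gene does not separate the SKN-1 isoforms, of which SKN-1A and SKN-1C are the best known. The last 41 bases of the gene's exons overlap csn-5, which encodes a subunit of the COP9 signalosome, on the other strand, and csn-5 fell to 66.8 ± 3.24 CPM in the mutant, against 97.4 ± 3.61 CPM in wild type (SD, n = 3 each). The neighbour 756 bases from the other end, the autophagy gene bec-1, rose to 70.7 ± 1.22 CPM, against 59.5 ± 1.33 CPM in wild type.

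The genes whose log2 level followed that of skn-1 most closely over the 6 libraries were anc-1, which encodes a giant protein that anchors nuclei, atgp-2 and F31F6.2, with Pearson r of 0.9988, 0.9983 and 0.9977. These r describe 6 libraries of 2 genotypes that share 1 difference between genotypes, and 88 of the 9175 genes compared had an r above 0.99. The gene anc-1 was at 148.7 ± 9.03 CPM in the mutant and 78.4 ± 6.20 CPM in wild type (SD, n = 3 each), so it rose more than skn-1, with a log2 fold change of 0.92 ± 0.061 (SE).

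Of the 2 classical SKN-1 targets, gst-4 rose and gcs-1 did not pass the test. The glutathione S-transferase gene gst-4 (WBGene00001752, chromosome IV, 10142225 to 10143099), whose promoter is the usual reporter of SKN-1 activity, was at 5.88, 5.43 and 6.31 CPM in mutant replicates 1 to 3. In wild-type replicates 1 to 3 it was at 0.808, 2.16 and 1.86 CPM, from 19, 50 and 44 reads. The wild-type libraries were low and spread more widely than the mutant ones, with replicate 1 the lowest, and none reached the mutant range. The log2 fold change was 1.86 ± 0.26 (SE, adjusted p = 5.6e-05), and 1.54 without wild-type replicate 1. That library was also the lowest wild-type one in summed markers of 3 tissues outside the gonad. Its sums were 256.7 CPM for intestine, 183.2 CPM for muscle and 141.7 CPM for hypodermis markers, and the other two wild-type libraries had 454.6 and 659.4, 330.4 and 346.7, and 232.0 and 269.3 CPM. The part of RNA from these tissues in the gst-4 values was not tested.

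The gene gst-4 overlaps the start of a longer gene on the same strand, dhs-12, which is annotated as a short-chain dehydrogenase. The overlap is 645 bases long, and 65 of these are exon bases of both genes. Both were called, in opposite directions: dhs-12 fell to 39.3 ± 2.26 CPM in the mutant, against 104.6 ± 5.46 CPM in wild type (SD, n = 3 each), a log2 fold change of -1.41 ± 0.053 (SE). How reads in this overlap were assigned is not given in the sources used here. The part of reads from dhs-12 in the gst-4 count was not tested.

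The gene gcs-1 (WBGene00001527, chromosome II, 9035562 to 9038301) encodes the rate-limiting enzyme of glutathione synthesis. It was at 125.9, 123.9 and 120.2 CPM in mutant replicates 1 to 3 and at 125.8, 127.4 and 137.7 CPM in wild-type replicates 1 to 3. The ranges overlapped, and the log2 fold change of -0.079 ± 0.040 (SE) had a 95% interval of -0.17 to 0.0071 and an adjusted p of 0.10. Scaling by library totals, which moved all log2 fold changes up by a median of 0.17, gave 0.087 (adjusted p = 0.080), and without wild-type replicate 1 the gene was called lower at -0.11 (adjusted p = 0.042). The level of gcs-1 per kilobase of exon was 5.96 to 7.14 times that of gst-4 in mutant libraries and 18.4 to 48.7 times in wild-type libraries.

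Among 13 listed SKN-1 targets, 6 were tested, of which 4 rose and 0 fell, against 31.3% and 30.7% of all genes. Besides gst-4 these were nit-1, a nitrilase gene, at 2.40 ± 0.12 CPM in the mutant and 1.01 ± 0.099 CPM in wild type (SD, n = 3 each), and the glutathione S-transferase genes gst-10 and gst-30. The gene gst-10 was at 2.11 ± 0.60 CPM in the mutant and 1.13 ± 0.52 CPM in wild type, and gst-30 at 0.790 ± 0.062 CPM in the mutant and 0.328 ± 0.027 CPM in wild type (SD, n = 3 each). The libraries of the genotypes overlapped for gst-10, gst-30 was under the level for testing in all wild-type libraries, and both lost their calls in DESeq2. The other 7 had at most 18 reads in a library, with no read in any library for med-1 and med-2, the genes that SKN-1 switches on in the early embryo. The list median log2 fold change over the 6 tested genes was 1.07, and the median of all tested genes was 0.028. Besides gcs-1 the gene that did not pass was gst-7, named after its values were seen, at 76.2 ± 4.12 CPM in the mutant and 70.0 ± 4.94 CPM in wild type (SD, n = 3 each). Under scaling by library totals gst-7 was called higher at 0.29 (adjusted p = 0.00034 in edgeR). With a filter at a mean of 5 CPM it was called higher at 0.19 (adjusted p = 0.0054), and the 4 genes that rose were not tested. In the same libraries 7 of 9 tested somatic gonad markers rose, with a median log2 fold change of 1.18, and their part in the result was not tested.

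Of 21 listed genes that act on SKN-1, all tested, 6 rose by 0.10 to 1.20 and 8 fell by 0.16 to 0.50 on the log2 scale, against 31.3% and 30.7% of all genes, so both counts were near the background. In DESeq2 and without mutant replicate 2 the higher genes numbered 4. The insulin pathway kinase gene akt-1, whose product holds SKN-1 out of the nucleus, was at 176.6 ± 1.98 CPM in the mutant and 250.0 ± 4.08 CPM in wild type, and ddi-1, a protease gene needed to activate SKN-1A, at 101.8 ± 2.35 CPM in the mutant and 136.2 ± 4.05 CPM in wild type (SD, n = 3 each). Both fell, with log2 fold changes of -0.50 ± 0.032 and -0.42 ± 0.037 (SE). The second AKT kinase gene, the X-linked akt-2, named after its values were seen, rose to 4.17 ± 0.19 CPM in the mutant, against 1.81 ± 0.17 CPM in wild type (SD, n = 3 each), a log2 fold change of 1.20 ± 0.17 (SE). The gene wdr-23, named after its values were seen, encodes the ubiquitin ligase adaptor that marks SKN-1 for degradation, and was at 76.8 ± 0.95 CPM in the mutant and 76.7 ± 2.35 CPM in wild type. Under scaling by library totals the split of this list became 11 higher and 4 lower, while akt-1 and ddi-1 stayed lower. That scaling called 4446 of all 9787 tested genes higher and 1864 lower.

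The cytosolic superoxide dismutase gene sod-1 (WBGene00004930, chromosome II, 6972706 to 6973887) was at 188.9, 190.5 and 183.2 CPM in mutant replicates 1 to 3 and at 149.7, 149.4 and 165.2 CPM in wild-type replicates 1 to 3. All mutant libraries were higher, with a log2 fold change of 0.28 ± 0.041 (SE, adjusted p = 4.6e-05). The mitochondrial enzyme is encoded by 2 genes of very different level. The first, sod-2, rose to 143.1 ± 2.47 CPM in the mutant, against 112.4 ± 6.75 CPM in wild type (SD, n = 3 each). The second, sod-3 (WBGene00004932, X chromosome, 17092753 to 17094306), a well-known target of the insulin pathway factor DAF-16, had 23, 27 and 34 reads in mutant replicates 1 to 3 and 3, 7 and 6 reads in wild-type replicates 1 to 3.

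These reads put sod-3 at 0.884, 0.847 and 1.19 CPM in the mutant and at 0.128, 0.303 and 0.254 CPM in wild type, with no overlap. Its log2 fold change was 2.07 ± 0.38 (SE, adjusted p = 0.00032), with a 95% interval of 1.25 to 2.90, and 1.78 without wild-type replicate 1. It is the only X-linked gene of the 10. Of 1245 tested X-linked genes 766 rose and 37 fell, against 31.3% and 30.7% of all genes. Their median log2 fold change was 0.54. The 766 include sod-3 and would include any other gene that reached the level for testing only in the mutant. Such genes were not counted apart. The exons of sod-3 share 24 bases with lido-1 and 65 with C08A9.3, both on the other strand. The gene lido-1 was at 4.63 ± 0.70 CPM in the mutant and 3.92 ± 0.30 CPM in wild type (SD, n = 3 each) and did not pass the test. No read fell on C08A9.3. The gene lido-2, 4741 bases away, rose by 1.66 ± 0.44 (SE) on the log2 scale. Per kilobase of exon, sod-2 was 131 to 189 times as abundant as sod-3 in mutant libraries and 387 to 954 times in wild-type libraries. The daf-16 gene itself, named after its values were seen, fell to 54.8 ± 3.51 CPM in the mutant, against 69.6 ± 3.60 CPM in wild type (SD, n = 3 each).

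The catalase genes lie in tandem on chromosome II in the order ctl-2, ctl-1 and ctl-3, 1540 and 1537 bases apart, and are close copies of each other, so their single counts are uncertain. The gene ctl-2 (WBGene00000831, 14299556 to 14302027), which encodes the peroxisomal catalase, was at 2.15, 1.35 and 0.736 CPM in mutant replicates 1 to 3 and at 1.45, 3.03 and 2.67 CPM in wild-type replicates 1 to 3. The ranges overlapped through wild-type replicate 1 and mutant replicate 1. The log2 fold change was -0.76 ± 0.39 (SE, adjusted p = 0.11), with a 95% interval of -1.63 to 0.11. The gene Y54G11A.7 on the other strand shares 65 exon bases with ctl-2 and fell to 2.61 ± 0.21 CPM in the mutant, against 4.03 ± 0.72 CPM in wild type (SD, n = 3 each).

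The call of ctl-2 turned on single libraries: without mutant replicate 1 it was lower at -1.18 (adjusted p = 0.017) and without wild-type replicate 1 at -1.03 (adjusted p = 0.020). Summed intestine markers were at 336.9, 278.6 and 271.6 CPM in mutant replicates 1 to 3 and at 256.7, 454.6 and 659.4 CPM in wild-type replicates 1 to 3, with mutant replicate 1 the highest mutant and wild-type replicate 1 the lowest wild-type library, as for ctl-2. Summed muscle markers, at 271.6, 215.9 and 184.9 CPM in the mutant and 183.2, 330.4 and 346.7 CPM in wild type, had the same highest and lowest library. So did summed hypodermis markers, at 159.6, 139.7 and 132.9 CPM in the mutant and 141.7, 232.0 and 269.3 CPM in wild type. Of the 10 intestine markers tested 1 rose and 0 fell, of 9 muscle markers 1 rose and 2 fell, and of 3 hypodermis markers 0 were called. Over all genes 31.3% were called higher and 30.7% lower. The median log2 fold changes of these intestine, muscle and hypodermis markers were -0.62, -0.025 and -0.37. The gut regulator gene elt-2 had 35 reads in the mutant and 14 in wild type over 3 libraries each. The part of RNA from these tissues in the ctl-2 values was not tested. The cytosolic catalase gene ctl-1 (WBGene00000830, 14303568 to 14306260) had 2, 3 and 0 reads in mutant replicates 1 to 3 and 3, 3 and 2 reads in wild-type replicates 1 to 3, at or under the limit of 3 reads. The third catalase gene, ctl-3, was at 5.31 ± 0.13 CPM in the mutant and 5.40 ± 0.66 CPM in wild type (SD, n = 3 each).

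Over the list of 8 superoxide dismutase and catalase genes, 6 were tested, of which 4 rose and 0 fell, against 31.3% and 30.7% of all genes. All 4 were dismutase genes, sod-1, sod-2, sod-3 and the extracellular enzyme's gene sod-4, which was at 4.38 ± 0.37 CPM in the mutant and 2.10 ± 0.48 CPM in wild type (SD, n = 3 each). Among these 4, sod-3 was under the level for testing in all wild-type libraries, and so entered the test through the mutant. The other cytosolic dismutase gene, sod-5, had 10 reads over the mutant libraries and 0 over the wild-type libraries, and was not tested. With a filter at a mean of 5 CPM this list held 2 higher and 0 lower genes, and with no filter 5 higher and 1 lower. Without mutant replicate 1, or without wild-type replicate 1, it held 4 higher and 1 lower. Of 11 peroxiredoxin and glutathione peroxidase genes, which remove peroxides, 8 were tested, of which 4 rose and 0 fell, against 31.3% and 30.7% of all genes. The count turned on single libraries, with 2 higher and 1 lower without mutant replicate 2 or without wild-type replicate 2, and 2 higher and 0 lower without wild-type replicate 1. Scaling with RLE factors, computed as DESeq2 does, gave 3 higher and 1 lower, and DESeq2 itself 2 higher and 1 lower. The peroxiredoxin genes prdx-2 and prdx-6 were at 397.8 ± 2.46 and 72.1 ± 5.19 CPM in the mutant and at 341.8 ± 8.34 and 55.1 ± 1.63 CPM in wild type (SD, n = 3 each). The remaining pair, gpx-2 and gpx-4, rose by 0.15 ± 0.061 and 0.37 ± 0.14 (SE) on the log2 scale, and lost their calls in DESeq2. In the libraries in which these genes rose, 7 of 9 tested somatic gonad markers rose too, and their part in the counts of both lists was not tested.

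The thioredoxin gene trx-2 (WBGene00007099, chromosome V, 10314671 to 10315294 on the plus strand) encodes the mitochondrial thioredoxin and showed the strongest decrease of the group. It was at 12.4, 12.7 and 14.03 CPM in mutant replicates 1 to 3 and at 54.9, 51.9 and 56.5 CPM in wild-type replicates 1 to 3. The gap between the genotypes was many times the spread within either. The log2 fold change was -2.06 ± 0.068 (SE, adjusted p = 2.4e-11), the 56th most negative among the 3003 genes called lower, and it lay between -2.12 and -1.89 under all the alternatives run.

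The 3′ end of trx-2 shares 47 exon bases with asps-1 on the other strand, and whether the counting used strand is not given in the sources used here. That neighbour fell by less, to 108.5 ± 2.65 CPM in the mutant, against 145.8 ± 2.21 CPM in wild type (SD, n = 3 each). The next gene on that side, B0024.11, 2197 bases away, had a log2 fold change of -0.090 ± 0.040 (SE) and did not pass the test. On the other side the receptor guanylate cyclase gene gcy-6, 617 bases away, had at most 8 reads in a library.

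The thioredoxin reductase genes moved in opposite directions. The cytosolic reductase gene trxr-1 (WBGene00015553, chromosome IV, 7011954 to 7016586), which encodes the selenoprotein of this species, was at 91.5, 97.7 and 103.9 CPM in mutant replicates 1 to 3 and at 167.0, 160.9 and 158.5 CPM in wild-type replicates 1 to 3. All mutant libraries were lower, with a log2 fold change of -0.73 ± 0.044 (SE, adjusted p = 8.2e-09). The mitochondrial reductase gene trxr-2 (WBGene00014028, chromosome III, 8913769 to 8916459) was at 25.3, 25.8 and 25.2 CPM in mutant replicates 1 to 3 and at 19.2, 19.4 and 17.9 CPM in wild-type replicates 1 to 3. All mutant libraries were higher, with a log2 fold change of 0.43 ± 0.070 (SE, adjusted p = 9.4e-05). The cell cycle phosphatase gene cdc-25.3 on the other strand shares 109 exon bases with trxr-2 and rose to 44.8 ± 2.37 CPM in the mutant, against 28.04 ± 2.27 CPM in wild type (SD, n = 3 each).

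Per kilobase of exon, trxr-1 was 2.21 to 2.52 times as abundant as trxr-2 in mutant libraries and 5.08 to 5.42 times in wild-type libraries. The mitochondrial thioredoxin gene trx-2 was 1.54 to 1.73 times as abundant as the reductase gene trxr-2, of the same compartment, in mutant libraries and 8.34 to 9.85 times in wild-type libraries. These ratios are taken within a library and do not depend on the scaling between libraries, and for neither pair did the genotypes overlap. The peroxiredoxin gene of the mitochondrial chain, prdx-3, named after its values were seen, was at 143.3 ± 4.99 CPM in the mutant and 152.1 ± 4.01 CPM in wild type (SD, n = 3 each) and did not pass the test. Its adjusted p was 0.057 in edgeR, and every mutant library was below every wild-type library. With RLE factors prdx-3 was called lower at -0.097 (adjusted p = 0.040 in edgeR). Under scaling by library totals it was at 0.081 and was not called.

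**Figure D2:**
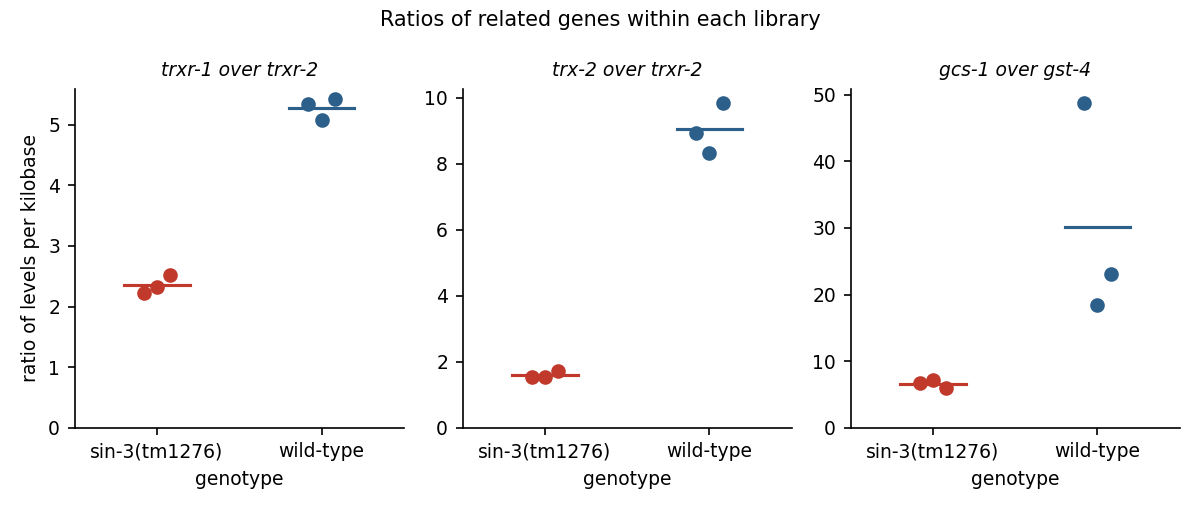
Ratio of the levels per kilobase of exon of related genes within each library, by genotype; points are libraries and lines are means of 3. The ratio of trx-2 to trxr-2 is 1.54 to 1.73 in mutant libraries and 8.34 to 9.85 in wild-type libraries, and the ratio of gcs-1 to gst-4 is spread from 18.4 to 48.7 in wild-type libraries.

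The list of the thioredoxin system also holds related genes such as the protein disulphide isomerases of the endoplasmic reticulum. Of 17 listed genes 14 were tested, of which 8 rose and 3 fell, against 31.3% and 30.7% of all genes. In the same libraries 7 of 9 tested somatic gonad markers rose, and their part in the count was not tested. The thioredoxin-like genes trx-4 and txl-1 were at 46.1 ± 2.89 and 124.2 ± 2.73 CPM in the mutant and at 31.2 ± 1.68 and 100.5 ± 3.31 CPM in wild type (SD, n = 3 each). Beside trx-2 and trxr-1 the third gene that fell was txdc-9, a thioredoxin domain gene, at 72.9 ± 1.17 CPM in the mutant and 91.8 ± 3.92 CPM in wild type. The thioredoxin genes trx-1, trx-3 and trx-5 had at most 5 reads in any library. Among the 8 that rose, txdc-12.2, named after its values were seen, was under the level for testing in at least 1 wild-type library. The list median was 0.29, and 0.46 under scaling by library totals, with 9 genes then higher and 3 lower. Of all 9787 tested genes 4446 were then higher and 1864 lower.

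In the glutathione branch 3 of 8 listed genes rose and 4 fell, all 8 being tested, against 31.3% and 30.7% of all genes. The glutaredoxin gene glrx-10 rose to 86.6 ± 8.13 CPM in the mutant, against 41.9 ± 1.30 CPM in wild type, and glrx-5 and glrx-22 rose by 0.58 ± 0.064 and 0.40 ± 0.059 (SE) on the log2 scale. The glutathione reductase gene gsr-1 fell to 170.5 ± 1.04 CPM, against 228.4 ± 7.58 CPM in wild type (SD, n = 3 each). The synthetase gene gss-1, which acts after gcs-1, and the glutaredoxin genes glrx-3 and glrx-21 had log2 fold changes of -0.19 ± 0.047, -0.22 ± 0.037 and -0.16 ± 0.064 (SE). Those 3 were no longer called under scaling by library totals, where the list held 3 higher and 1 lower gene. That scaling called 4446 of all 9787 tested genes higher and 1864 lower. The gene glrx-21 also lost its call in DESeq2, while glrx-10 and gsr-1 kept their direction and call.

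The glutathione S-transferase family was largely near silence in the distal gonad. Of 49 genes 23 were tested, of which 9 rose and 2 fell, against 31.3% and 30.7% of all genes, and the other 26 had at most 14 reads in a library. The 9 rose by 0.72 to 1.86 on the log2 scale, with gst-4 at the upper end. Of these, 3 were under the level for testing in at least 1 wild-type library, gst-24, gst-30 and gst-39. The first 2 were under it in all wild-type libraries, and so entered the test through the genotype in which they were higher. In DESeq2 4 of the 9 lost their call. With a filter at a mean of 5 CPM the 9 were not tested. There gst-7, named after its values were seen, was called higher at 0.19 (adjusted p = 0.0054 in edgeR) and gst-1 lower. The TMM-scaled levels of the family summed to 347.3 to 369.3 CPM in mutant libraries and 375.8 to 416.7 CPM in wild-type libraries. That sum was made up mostly of gst-1 and was lower in every mutant library. It was not taken under scaling by library totals. The genes that fell were gst-43, at 1.57 ± 0.33 CPM in the mutant and 4.98 ± 0.24 CPM in wild type, and gst-1, at 233.7 ± 12.9 CPM in the mutant and 289.5 ± 17.2 CPM in wild type (SD, n = 3 each). Somatic gonad markers, of which 7 of 9 tested rose, moved in the same libraries, and their part in the result was not tested. Many genes of this family are close copies, so the counts of single genes are uncertain.

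The NADPH that feeds both branches comes in part from isocitrate dehydrogenases. The cytosolic enzyme gene idh-1 fell to 124.3 ± 5.00 CPM in the mutant, against 213.5 ± 4.27 CPM in wild type, and the X-linked mitochondrial gene idh-2 rose to 15.8 ± 0.71 CPM, against 10.5 ± 0.96 CPM in wild type (SD, n = 3 each). Their log2 fold changes were -0.78 ± 0.037 and 0.58 ± 0.097 (SE). Of the other 3 listed genes the malic enzyme gene men-1 rose by 0.12 ± 0.048 (SE), and lost its call in DESeq2. All 5 listed genes were tested, of which 2 rose and 1 fell, against 31.3% and 30.7% of all genes. With RLE factors, or with mutant replicate 1 or 3 or wild-type replicate 2 or 3 left out, the list held 1 higher gene.

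**Figure D3:**
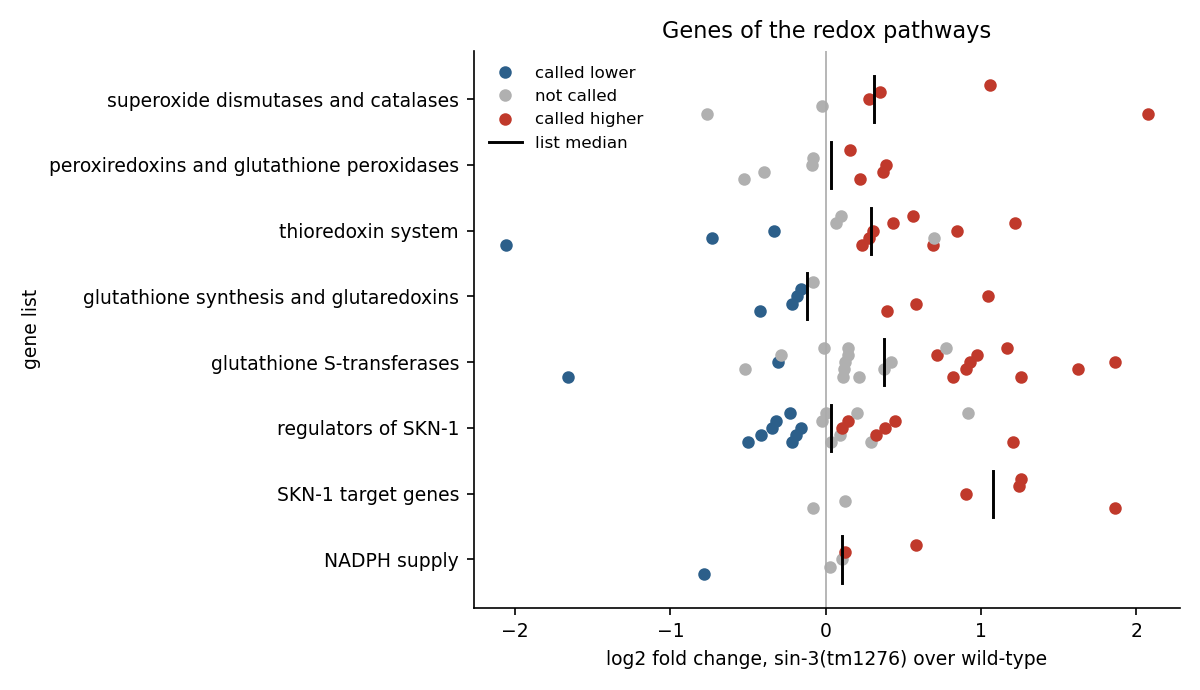
Log2 fold change, mutant over wild type, of every tested gene in 8 lists of redox genes; colours give the edgeR call at an adjusted p under 0.05 and black bars the list medians, and a gene may stand in more than 1 list. The thioredoxin list holds 8 genes called higher and 3 called lower, with trx-2 at -2.06, and the SKN-1 target list 4 called higher and 0 lower.

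The listed genes outside the 10, 117 in the files and 78 tested, held 33 higher and 16 lower genes, with a median log2 fold change of 0.14 where all tested genes had 0.028. Of these 78 genes 42.3% were called higher and 20.5% lower, against 31.3% and 30.7% of all genes, and 62.8% in either direction, against 62.0%. The 33 include gst-24 and gst-30, which were under the level for testing in all wild-type libraries. They also include gst-39 and txdc-12.2, which were under it in at least 1 wild-type library. Of the coding genes that overlap one of the 10 or lie directly beside it, 13 were tested, of which 4 rose, 5 fell and 4 did not pass the test, against 31.3% and 30.7% of all genes higher and lower, so both counts were near the background. Those not named above were art-1 and C15F1.8 beside sod-1 and tpk-1 beside trxr-2. Their log2 fold changes were 0.19 ± 0.062, -0.38 ± 0.088 and 0.11 ± 0.10 (SE), and tpk-1 did not pass the test.

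In the order of levels per kilobase of exon, sod-1 was first in both genotypes, at 260.5 ± 5.31 CPM per kilobase in the mutant and 214.9 ± 12.5 in wild type (SD, n = 3 each). In the mutant it was followed by skn-1 at 71.8 ± 2.15, gcs-1 at 52.8 ± 1.22, trxr-1 at 36.7 ± 2.34 and trx-2 at 25.0 ± 1.63 CPM per kilobase. In wild type trx-2 was second at 104.3 ± 4.48, followed by trxr-1 at 61.0 ± 1.65, gcs-1 at 55.8 ± 2.76 and skn-1 at 48.7 ± 3.01 CPM per kilobase. The genes trx-2 and skn-1 thus changed places in the order, with skn-1 second only to sod-1 in the mutant. Below them came trxr-2 and gst-4 in both genotypes, then sod-3 and ctl-2 in the mutant and ctl-2 and sod-3 in wild type, with ctl-1 last. Neighbours in this order did not overlap between libraries, except sod-3 and ctl-2 in the mutant and gst-4 and ctl-2 in wild type.

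**Figure D4:**
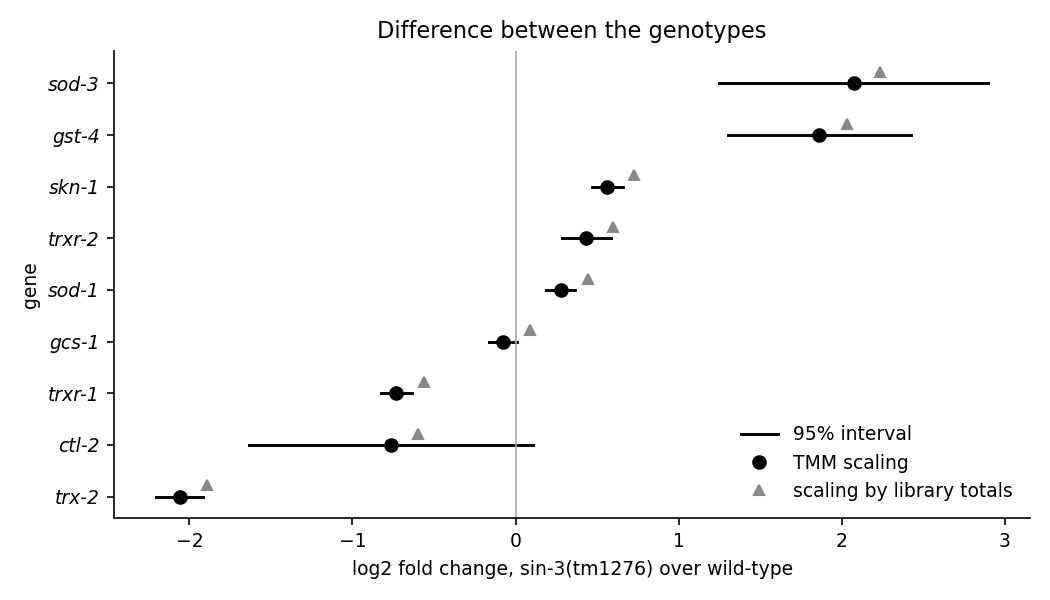
Log2 fold change, mutant over wild type, of 9 antioxidant genes with TMM scaling (points, with 95% intervals) and with scaling by library totals (triangles). Totals shift the genes upward by about the same amount, which puts gcs-1 at 0.087 instead of -0.079 and leaves the direction of the other 8 as it was.

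In the authors' deposited table of the same comparison trx-2 had a log2 fold change of -2.09, trxr-1 -0.76, trxr-2 0.39, skn-1 0.52, gst-4 1.75 and sod-3 1.68. That deposited table gave gcs-1 and ctl-2 adjusted p values of 0.060 and 0.067.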

How the data were processed

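Reads per gene were taken as the authors deposited them, whole-number counts with no normalization, from stranded, ribosome-depleted total RNA libraries read single-end over 50 bases, per the labels' protocols. HTSeq 0.7.2, STAR 2.7.3a, DESeq2 1.36.0 and fastp 0.20.1 stand in the submitters' processing notes without roles. Build, annotation and any use of strand in counting: not given in the sources used here. The authors' deposited table holds log2 fold changes, standard errors and p-values, per the file headers. Its signal column, a mean count that the authors scaled across samples, was not used.

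Lines that name no gene held 8.73% to 10.9% of counted reads and were left out. Names, lengths and places came from Ensembl release 115 of WBcel235, matched by identifier for 46923 of 46934 genes. The test used edgeR 4.0.16 in R 4.3.3 (filterByExpr, TMM, robust quasi-likelihood F test on genotype, Benjamini-Hochberg adjustment over 9787 genes). Standard errors are the log2 fold change over the root of F. Levels per kilobase use the union of annotated exons. Steps were tested on simulated counts. Pairs of libraries gave a chi-square per degree of freedom of 12.5 to 18.8 within a genotype, so none is a copy. The members and gene lists were chosen with earlier results of these data known. Genes named are the 10, the 2 of each list with the smallest p, called genes where a list had 5 or fewer in a direction, tested coding neighbours, and the 3 most like skn-1; every other gene was named after its values were seen. Alternatives were other scalings, filters, DESeq2 1.42.0, each library left out and a replicate block.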

Additional observations from a re-analysis of the deposited data

How the results depend on the processing

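The 9 tested genes had 114 fold changes over 13 alternatives, of which 109 kept direction and side of the threshold. The 7 called genes kept both in each alternative that tested them. The gene gcs-1 reversed to 0.087 under library totals. The gene ctl-2 was called lower at -0.75 with no filter (adjusted p = 0.0076), and its fold change ranged from -1.18 to -0.46 with single libraries left out, that of gcs-1 from -0.11 to -0.044. With single libraries left out the genes of the 10 called lower numbered 2 to 4. A filter at a mean of 5 CPM left 3 of the 10 called higher, because gst-4 and sod-3 were not tested there. Library totals left 1864 of all genes lower (4446 higher) and 9 of the other listed genes lower, and moved all changes up by a median of 0.17. Of 208 counts of single lists 30 moved by over 1.5 times. Same-numbered libraries of the genotypes deviated with r of -0.25, -0.068 and -0.10, which shows no shared deviation by number. Taken around means of 3 libraries, such r cannot tell whether same-numbered libraries were prepared together. With a replicate block 2906 genes were higher and 2935 lower, and trx-2 was at -2.06. Low counts limit sod-3, ctl-2 and most glutathione S-transferase genes. The causes were not tested.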
